A study of Mus musculus with 2 samples.

Results

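The ABC and organic ion drug transporters are membrane proteins that carry drugs, toxins, conjugated metabolites, bile salts, organic cations and organic anions into or out of cells. The set was taken from the array by gene name: every non-control probe named for a gene of the Abca, Abcb, Abcc, Abcd, Abcg, Slc22a, Slco or Slc47a series was a member, other than the sterol transporter genes Abca1, Abcg5 and Abcg8. This gave 143 of the 41174 probes on the array, which stand for 83 genes among 27376 names in the array files. The rule uses gene names and no measured value, though the families were picked with earlier results of these data known.

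Total RNA of the small intestine of C57BL/6 mice, 6 to 8 weeks old, was compared between a food antigen-free diet (FAF) and conventional chow (Conv). The FAF diet contained amino acids and had been fed over at most 5 generations, and the Conv diet was LASQCdietRod16 from LASvendi. The labels name SPF (specific pathogen-free) as well as GF (germ-free) mice, and do not tell from which the RNA came. The 2 RNA samples, FAF and Conv, were labelled with Cy5 and Cy3 and hybridised together to 2 Agilent two-colour arrays, with the dyes exchanged on the second. Both arrays carry the same RNA pair, so the design holds 1 RNA sample per diet, no spread between mice and no test of the diets. The sources used here do not give the intestinal segment, the sex or any pooling of mice.

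The ABC family pumps its substrates with energy from ATP, and several members are known as multidrug resistance pumps that return drugs from the enterocyte to the gut lumen. The SLC22 and OATP (gene prefix Slco) families are mostly uptake carriers for cations, anions and carnitine, and MATE carriers (gene prefix Slc47a) expel organic cations in exchange for protons. In the intestine, pumps of the apical membrane face the lumen and pumps of the basolateral membrane face the blood, so that the balance of these proteins bears on how much of an oral drug is absorbed.

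A probe was taken as measured when both arrays showed it well above background for 1 diet or for both, and a gene was read from its brightest measured probe. By this filter 72 of the 143 member probes were measured, for 49 of the 83 genes, and 34 genes were not, which says only that their signal was not told from background on these arrays. Of the 71 other member probes, 66 were well above background in none of the 4 channels and 5 in 1 channel. Values below are log2 ratios of FAF over Conv, where 1 is 2-fold, and the ± sign gives how far each array lies from the mean of both, which is dye and hybridisation error. Intensities are spot brightness after normalisation, in arbitrary units, and are compared between diets at the same probe or, for marker lists, as sums over the same probes, in which the brightest probes weigh most. Across the array 63.6% and 62.3% of probes were well above background in FAF and 62.9% and 60.2% in Conv, and no spot was saturated.

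Of the 49 measured transporter genes, 5 were higher in FAF by a rule of size, which asks for a mean ratio of at least 2-fold and at least 1.5-fold the same way on each array, and 0 were lower. These 5 were Slc47a1, Abcb1a, Abcb4, Abcc2 and Abcb1b, with ratios of 1.81, 1.80, 1.61, 1.36 and 1.31. They are 10.2% of the measured members, and over all 17162 measured genes the rule called 1.53% higher and 0.88% lower, together 2.41%. With the lesser limit of 1.5-fold on each array alone, 7 members (14.3%) were higher and 1 (2.04%) was lower, beside 3.69% and 2.94% of all measured genes. The additional members included Abcc6 as higher, and Abcc3 was the lower one. In RNA of a whole tissue, fewer cells of a type and less RNA per cell cannot be told apart.

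Most other members had ratios close to 0. The median over the 49 genes was 0.08 with an interquartile range of 0.46, and over all measured genes it was 0.00 with a range of 0.33. Without the 5 higher genes the other 44 had a median of 0.01 and lay between -0.77 and 0.78. Among the 30 measured ABC genes 4 were higher, with a median of 0.13, and among the 19 measured carriers of the Slc22a, Slco and Slc47a series 1 was higher, with a median of 0.02. The arrays gave the same sign for 39 of the 49 members and for 13407 of all 17162 measured genes. Among the members each array lay at most 0.20 from the mean. As a description, array against array, Pearson's correlation was 0.94 over the 49 members and 0.90 over all 17162 genes, and Spearman's was 0.83 and 0.81, where all points share the same 2 RNA samples.

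**Figure D1:**
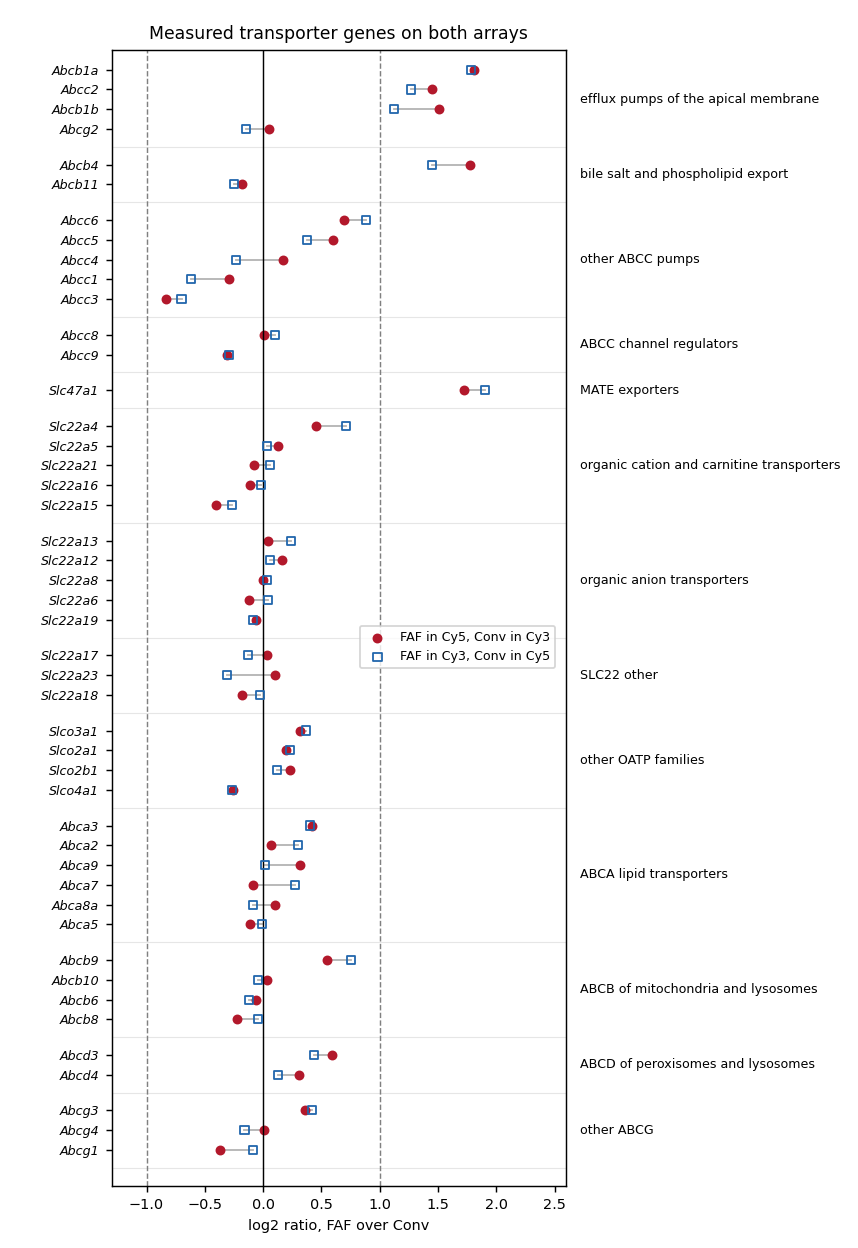
Log2 ratio of FAF over Conv (x axis) for 46 of the 49 measured transporter genes, grouped by role. Filled circles are the array with FAF in Cy5, open squares the array with FAF in Cy3, and dashed lines mark 2-fold. Slc47a1, Abcb1a, Abcb4, Abcc2 and Abcb1b stand to the right of the 2-fold line on both arrays, and Abcc3 has the lowest mean at -0.77.

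The plot of both arrays by class shows 5 genes set off from the rest at the right, 4 of them ABC transporters, and no gene past the 2-fold line at the left.

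**Figure D2:**
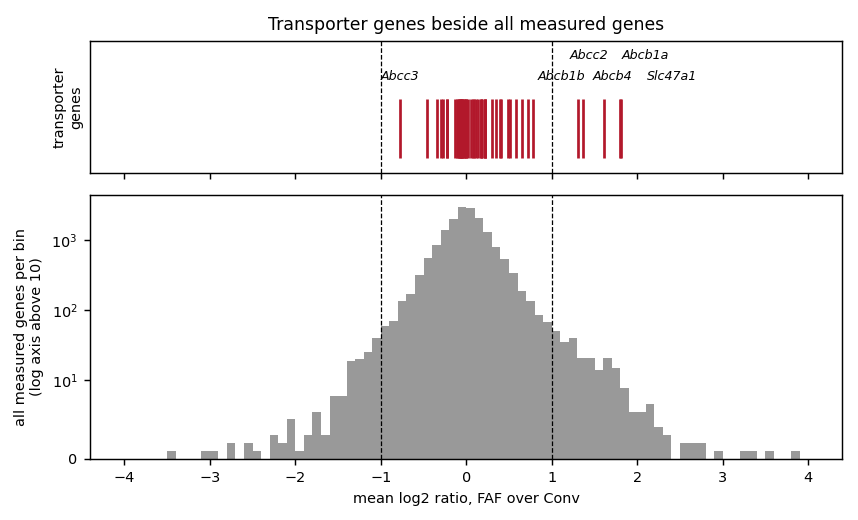
Mean log2 ratio of FAF over Conv for the 49 measured transporter genes (upper panel, a line per gene) above the number of all 17162 measured genes in bins of the same ratio (lower panel, log axis above 10). Dashed lines mark 2-fold. The 5 higher transporter genes lie between 1.31 and 1.81, in the sparse right tail of all genes, and most other members lie over the centre.

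Set against every measured gene, 44 genes (0.256%) had a higher ratio than Slc47a1 and 46 (0.268%) a higher ratio than Abcb1a. For Abcb4, Abcc2 and Abcb1b the numbers were 81, 121 and 134 genes. At the other end 328 genes (1.91%) had a lower ratio than Abcc3.

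The probe sequences behind the main values are shown, since the ratio of a gene rests on them. Each line holds the first 30 of the 60 bases of a probe as deposited. The first 6 lines belong to the higher genes, followed by the apical pump Abcg2 and by Abcc3, the lowest member.
Abcb1a: atatattgtcccaactgggatattgtacat
Abcb1b: tccaggctggagcaaagcgctcatgagctg
Abcb4: agctgctggcgcagaagggcatctatttct
Abcc2: atttcttagttacttttgttcttgtgactg
Slc47a1: ggctggaattcctatttcttctgcctattg
Slc47a1, other probe: acgtgcagttttgaacatagagacaattca
Abcg2: acggacaacagcacttgtgttaacagctat
Abcc3: ttttttaaatgagcctttctcctcatggac

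Abcb1a, Abcb1b and Abcb4 are close relatives, and whether a probe of one also binds the transcript of another was not tested. The probes lie, in mouse build mm9 as the array files give it, at chr5:8747979-8748038 for Abcb1a, chr5:8865925-8865984 for Abcb1b and chr5:8959108-8959167 for Abcb4, all on the plus strand. Those of Abcc2 and Abcg2 are at chr19:43912079-43912138 and chr6:58640579-58642261 on the plus strand, the Abcg2 probe spanning more than its own length of genome. The Slc47a1 probes are at chr11:61156954-61157013 and chr11:61157170-61157229 and the Abcc3 probe at chr11:94204671-94204730, on the minus strand. Gene annotation of mm9 was not used, so the exon or UTR of each probe is not stated.

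The pumps of the apical membrane, which return substrates to the lumen, were all measured, and 3 of 4 were higher in FAF, with a median of 1.34. Abcb1a and Abcb1b encode the 2 mouse forms of P-glycoprotein, a pump for bulky hydrophobic drugs. Abcb1a had intensities of 1396 and 1384 in FAF against 398 and 403 in Conv. All FAF values were above all Conv values. The 2 values of a diet are readings of the same RNA sample. Values of the diets that stand apart, here and below, therefore show only that the hybridisation repeated. The ratios of 1.81 and 1.78 gave a mean of 1.80 ± 0.02, or 3.47-fold. Abcb1b had 860 and 732 in FAF against 303 and 336 in Conv. Its readings did not overlap between the diets either, the ratios were 1.51 and 1.12, and the mean of 1.31 ± 0.19 was 2.49-fold. A separate Abcb1b probe, at chr5:8861441-8861500, gave 1.52.

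Abcc2 encodes MRP2, which exports conjugates of drugs and bilirubin with glutathione or glucuronic acid. It had intensities of 4411 and 4253 in FAF against 1613 and 1769 in Conv. The readings of the diets stood apart, with ratios of 1.45 and 1.27 and a mean of 1.36 ± 0.09, or 2.56-fold. Abcg2 encodes BCRP, a pump of drugs, sulfate conjugates and dietary plant compounds in the same membrane. It had 8314 and 8135 in FAF against 8032 and 9030 in Conv. The readings of the diets overlapped, the ratios of 0.05 and -0.15 differed in sign, and the mean was -0.05 ± 0.10. Its other probe had a mean of -0.07, and Abcg2 was the apical pump of the 4 that did not pass the rule.

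**Figure D3:**
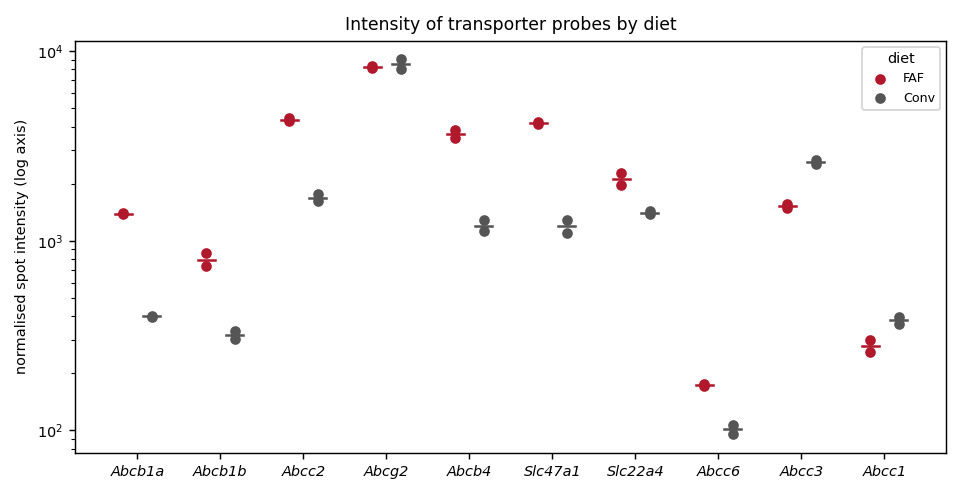
Normalised spot intensity (log axis, arbitrary units) of the probes of 10 transporter genes in FAF (red, left of each pair) and Conv (grey, right). Points are the 2 arrays and bars their geometric mean, and levels compare only within a gene, since probes differ in brightness. Points of FAF and Conv are apart for Abcb1a, Abcb1b, Abcc2, Abcb4 and Slc47a1, overlap for Abcg2, and stand in the opposite order for Abcc3 and Abcc1.

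Of the canalicular transporters of bile, Abcb4 was higher in FAF and Abcb11 was not called. Abcb4 encodes MDR2, which moves phosphatidylcholine across the canalicular membrane of the hepatocyte and is a close relative of P-glycoprotein. Its intensities were 3818 and 3491 in FAF against 1123 and 1280 in Conv. With no overlap between the diets, the ratios were 1.77 and 1.45 and the mean 1.61 ± 0.16, or 3.04-fold. A separate Abcb4 probe was not well above background. Abcb11, the bile salt export pump, had 174 and 171 in FAF against 197 and 203 in Conv, with a ratio of -0.22 ± 0.04. Among liver markers, Alb was well above background in Conv only, at intensities of 76.9 and 76.0 in FAF against 83.0 and 87.6 in Conv, and Fgb and Ttr were not measured. Of the 7 liver markers 4 were measured, 0 of them higher, and their summed intensity was 5380 and 5260 in FAF against 7680 and 7540 in Conv. Most of that sum was Cps1, which enterocytes also express, with 5089 and 4970 in FAF against 7378 and 7231 in Conv.

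Slc47a1, the only MATE gene in the set, had a ratio close to that of Abcb1a, and which of them was higher changed with the processing. It encodes MATE1, known from kidney and liver as the exporter of organic cations such as metformin into urine and bile. Its intensities were 4234 and 4129 in FAF against 1283 and 1104 in Conv. The diets did not overlap, the ratios were 1.72 and 1.90, and the mean of 1.81 ± 0.09 was 3.51-fold. The other probe of the gene had 1484 and 1644 in FAF against 512 and 477 in Conv and a mean of 1.66. Of 7 kidney markers only Aqp2 was measured, at a ratio of 0.04, with 110 and 109 in FAF against 108 and 106 in Conv.

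Cation and carnitine carriers of the SLC22 family had 0 of 6 measured genes past the rule, and their median was 0.04. Slc22a4, which encodes the ergothioneine carrier OCTN1, had 1959 and 2263 in FAF against 1437 and 1381 in Conv and a ratio of 0.58 ± 0.13. Every FAF value was above every Conv value, short of the 2-fold limit. Slc22a5, the carnitine carrier OCTN2, had 882 and 810 in FAF against 805 and 794 in Conv, a ratio of 0.08 ± 0.05. Slc22a21, a carnitine carrier known in mice, had ratios of -0.08 and 0.06 with a mean of -0.01 ± 0.07. Slc22a16, described as a carnitine carrier of the testis, had -0.06 ± 0.05. Slc22a15 had 108 and 118 in FAF against 143 and 143 in Conv, with a ratio of -0.34 ± 0.07 on a dim probe, and its 3 probes ran between -0.34 and 0.02. Slc22a2 and Slc22a3, the organic cation transporters OCT2 and OCT3, were not measured.

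Anion carriers of the SLC22 family were mostly not measured: 5 of 12 genes passed the filter, and these had ratios between -0.07 and 0.14. Slc22a6 and Slc22a8, the renal uptake carriers OAT1 and OAT3, had ratios of -0.04 and 0.02. Slc22a12, the renal urate carrier, had 0.11. Slc22a13, a urate and nicotinate carrier of the kidney, was well above background on both arrays in FAF only, and Slc22a19 in Conv only. For Slc22a13 the ratios were 0.04 and 0.24, with a mean of 0.14 ± 0.10. With the dim Conv signal set to the lowest signal well above background, that mean became 1.075-fold higher in FAF. On the first array Conv was well above background as well, so 1.075-fold is not a minimum for each array. For Slc22a19 no dim signal fell below the lowest signal well above background, so 1.052-fold lower in FAF is its measured mean. All signals of Slc22a6, Slc22a13 and Slc22a19 lay below 90.6, the highest level of the unmeasured member probes. Their ratios therefore do not show whether the diets differed. The remaining SLC22 genes Slc22a17, Slc22a18 and Slc22a23 lay between -0.11 and -0.05.

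None of the 8 probes for the 6 genes of the OATP1 family, which includes the uptake carriers of liver and brain, was measured in either diet. The other OATP genes had 4 of 9 measured and 0 past the rule. The prostaglandin carrier Slco2a1 had a ratio of 0.22 ± 0.02, and the broad drug carrier Slco2b1, which is known from the intestine, had 0.17 ± 0.06. Slco3a1 had 0.35 ± 0.03. Slco4a1, a carrier of thyroid hormones, had 535 and 560 in FAF against 642 and 676 in Conv and a ratio of -0.27 ± 0.00, with every FAF value below every Conv value.

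Among the other ABCC pumps 0 of 5 measured genes passed the rule, and they held both the lowest member and the highest of the uncalled ones. Abcc3, which encodes the basolateral pump MRP3 for glucuronides and bile salts, had 1492 and 1562 in FAF against 2655 and 2539 in Conv. The diets did not overlap, and the ratio was -0.77 ± 0.07, or 1.70-fold lower in FAF. A dimmer Abcc3 probe was well above background on both arrays in Conv only. Its ratios of -0.24 and -0.05 gave a mean of -0.15, or 1.108-fold lower in FAF. Abcc1, which encodes the basolateral pump MRP1 of glutathione conjugates, had 298 and 258 in FAF against 365 and 398 in Conv. Its ratios of -0.29 and -0.62 gave -0.46 ± 0.17, and its 3 probes ran between -0.46 and -0.33. Abcc3 and Abcc1 were therefore below their Conv values on both arrays, short of the rule, while Abcc6 and Abcc5 were above theirs. Abcc6, known from liver, where it drives release of ATP, had 173 and 176 in FAF against 107 and 95.7 in Conv and a ratio of 0.78 ± 0.09. Its probe was dim, and the ratio was 1.75 in the log ratio of the scanner software. Abcc4 and Abcc5, which export cyclic nucleotides among other substrates, had -0.03 ± 0.20 and 0.49 ± 0.11. Abcc8 and Abcc9, which are regulatory subunits of potassium channels rather than pumps, had 0.06 and -0.30.

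The ABC transporters of lipids and organelles had 0 of 17 measured genes past the rule in either direction. Abcb9, a peptide transporter of lysosomes, had 3789 and 4043 in FAF against 2586 and 2402 in Conv and a ratio of 0.65 ± 0.10. The mitochondrial genes Abcb6, Abcb8 and Abcb10 lay between -0.13, for Abcb8, and 0.00, for Abcb10. Of the ABCD genes, Abcd3, which takes fatty acyl-CoA into peroxisomes, had 21140 and 19480 in FAF against 14060 and 14390 in Conv. Its ratio was 0.51 ± 0.08, the diets did not overlap, and its 3 probes ran from 0.45 to 0.52. Abcd4, which works in lysosomal export of cobalamin, had 0.22. Of the ABCA family of lipid transporters 6 of 15 genes were measured, between -0.06 and 0.41, with Abca3, the lipid pump of lung surfactant, at the top. Abcg1, which exports cholesterol from macrophages, had -0.23 ± 0.14, Abcg4 had -0.07 and the rodent gene Abcg3 had 0.39.

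The genes Abcb1a, Abcb1b and Abcb4 lie next to each other on chromosome 5, where their brightest probes span 8747979 to 8959167 in build mm9. Their ratios were between 1.31 and 1.80. The nearest measured genes outside the run, looked at after the values of the run were known, were Rundc3b, which encodes a RUN domain protein, at 0.94 ± 0.17 and Crot, the carnitine octanoyltransferase of peroxisomes, at 0.92 ± 0.05. Rundc3b overlaps the start of Abcb1a in RefSeq. Next to these came Slc25a40 at 0.21 and Tmem243 at 0.45, and then Dbf4 at -0.52 and Dmtf1 at 0.23. None of these 6 passed the rule of size.

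**Figure D4:**
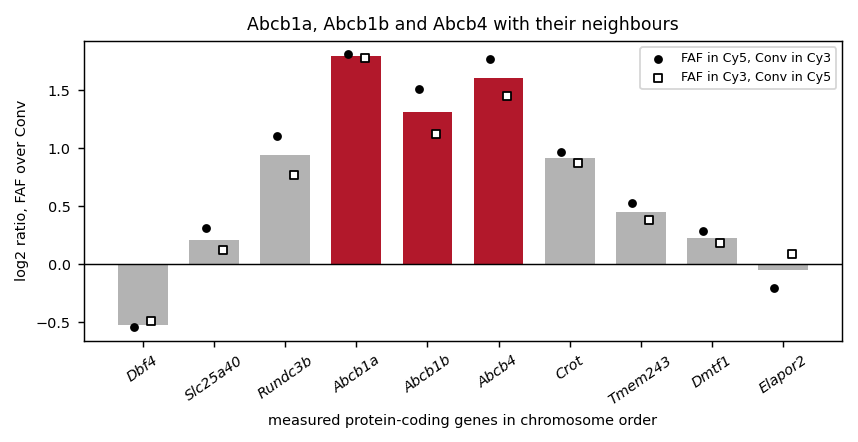
Mean log2 ratio of FAF over Conv (bars) for measured protein-coding genes in chromosome order around Abcb1a, Abcb1b and Abcb4 (red bars). Circles are the array with FAF in Cy5 and squares the array with FAF in Cy3. The ratio is highest at the 3 transporter genes, 0.94 and 0.92 at the genes beside them, and between -0.52 and 0.45 further out.

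The plot of the run shows the 3 transporter genes as the highest of the 10 measured genes in this stretch, with smaller ratios on either side.

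Because Abcb1a, Abcb1b, Abcb4 and Abcc2 all rose, the 250 bases before their start sites are shown, from RefSeq on assembly GRCm38.p6 and on the plus strand. Which start sites the tissue used was not tested, and the Abcb1a start shown lies far before its probe. Capitals mark the nuclear receptor half-sites AGGTCA and AGTTCA on either strand.
Abcb1a, chr5:8566841-8567090: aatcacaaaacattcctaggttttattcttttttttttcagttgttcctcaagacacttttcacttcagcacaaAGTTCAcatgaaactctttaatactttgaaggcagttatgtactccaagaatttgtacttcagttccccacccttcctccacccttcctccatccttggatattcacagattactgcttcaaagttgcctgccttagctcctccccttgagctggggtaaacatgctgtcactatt
Abcb1b, chr5:8797897-8798146: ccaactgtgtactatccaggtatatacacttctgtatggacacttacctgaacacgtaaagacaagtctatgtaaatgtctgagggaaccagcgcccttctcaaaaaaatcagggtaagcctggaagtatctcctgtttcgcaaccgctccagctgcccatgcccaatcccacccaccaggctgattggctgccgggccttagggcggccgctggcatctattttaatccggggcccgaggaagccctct
Abcb4, chr5:8893471-8893720: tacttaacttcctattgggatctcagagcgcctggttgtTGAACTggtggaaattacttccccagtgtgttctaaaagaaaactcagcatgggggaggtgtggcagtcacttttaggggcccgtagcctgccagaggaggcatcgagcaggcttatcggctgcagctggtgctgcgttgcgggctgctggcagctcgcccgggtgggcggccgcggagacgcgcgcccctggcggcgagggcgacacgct
Abcc2, chr19:43782058-43782307: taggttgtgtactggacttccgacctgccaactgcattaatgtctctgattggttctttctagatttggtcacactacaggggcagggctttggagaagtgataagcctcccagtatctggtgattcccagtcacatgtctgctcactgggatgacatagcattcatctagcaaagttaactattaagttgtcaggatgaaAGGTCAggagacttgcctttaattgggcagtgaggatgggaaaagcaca

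The Abcb1a window held AGTTCA, first base 176 bases before the start, and the Abcb4 window held it on the opposite strand at 211. The Abcc2 window held AGGTCA at 49. The Abcb1b window held neither of these. Abcg2, which did not pass the rule, has 3 windows, and AGGTCA stood at 212 and 121 in the first and at 197 in the third. In the 4 printed windows CCAAT stood at 87 and 66 for Abcb1b, at 237 for Abcb4 and at 202 and 28 for Abcc2, and the GC box GGGCGG at 48 for Abcb1b and 46 for Abcb4. Over both strands, AGGTCA occurred in 14.0% of all 32851 RefSeq windows of this length and AGTTCA in 11.8%. Among the 41 windows found for 34 of the 49 measured members each occurred in 14.6%. CCAAT occurred in 19.5% of the member windows and 33.8% of all windows, and GGGCGG in 43.9% and 32.7%. These are matches of letters in a short window and say nothing of binding.

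Other genes of drug handling were read from lists drawn up with earlier results of these data known. Of 27 enzymes of drug metabolism 22 were measured, with 10 higher and 0 lower and a median of 0.99. They included the cytochromes P450 Cyp2j6 at 2.27, Cyp3a25 at 2.07, Cyp2b10 at 1.97, Cyp3a11 at 1.74, Cyp2d22 at 1.24 and Cyp3a13 at 1.05. The conjugating enzymes Ugt2b5 at 1.95 and Gsta1 at 1.72, the esterase Ces2a at 1.18 and the P450 reductase Por at 1.06 made up the rest. Genes of the Cyp2b, Cyp3a and Ugt2b families are near copies of each other, so a probe may read several of them.

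Of 13 regulators of such genes, all were measured, 11 were above 0 and 1 passed the rule. That gene was Ppara, the fatty acid receptor, at 1.16 ± 0.10. The xenobiotic receptors Nr1i3 (CAR) and Nr1i2 (PXR) had 0.86 ± 0.01 and 0.65 ± 0.11. The bile acid receptor Nr1h4 (FXR) had the lowest ratio of the list, -0.58 ± 0.13. The 4 scaffold genes of apical transporters had a median of 0.36, with Pdzk1, which anchors apical carriers, at 0.88 ± 0.00 and Slc9a3r1 at 0.40 ± 0.10. Of 15 other carriers of drugs and bile acids 12 were measured, with a median of -0.03, and 1 passed the rule, the folate carrier Slc46a1 at 2.68.

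Markers of several cell types differed between the diets as well. All 11 enterocyte markers were measured, 4 were higher, and their median was 0.44, with Sis at 1.70, Lct at 1.62, Alpi at 1.31 and Apob at 1.16. Their summed intensity was 775000 and 788000 in FAF against 431000 and 519000 in Conv. Slc5a1, Vil1, Fabp2 and Krt20 had 0.72, 0.39, 0.44 and 0.38, and Anpep, Cdx1 and Cdx2 lay between -0.16 and -0.09. The enterocyte markers thus ranged from below 0 to 1.70, beside 1.31 to 1.80 for the higher ABC genes, and their part in those ratios was not tested.

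P-glycoprotein and other members are also found in endothelium, and all 7 endothelial markers lay between 0.28 and 0.50, with 0 past the rule. Their sums were 5780 and 5720 in FAF against 4460 and 4490 in Conv. Smooth muscle markers, all 8 measured, lay between -0.76 and -0.24, with sums of 61500 and 62100 in FAF against 97000 and 88600 in Conv. Of 7 fat tissue markers 6 were measured, all below 0, and 4 were lower, with a median of -1.60, and Lep was not measured. Their sums were 8730 and 9620 in FAF against 17000 and 16500 in Conv, of which Fabp4, at -0.39, made up 7489 and 8288 in FAF and 10640 and 9987 in Conv. Of 9 lymphocyte markers 8 were measured, 7 of them below 0, and 2 were lower, with sums of 2350 and 2430 in FAF against 3740 and 3800 in Conv, and Cd79a was not measured. Of the 7 myeloid markers measured 4 were above 0, with a median of 0.22, Csf1r at 0.61 and Adgre1 at 0.37. Their sums were 42900 and 41700 in FAF against 48800 and 51200 in Conv, of which Lyz2, at -0.29, made up 39160 and 38320 in FAF and 46090 and 48440 in Conv. The part of these tissues in the ratios of Abcc3, Abcc1 and the other lower members was not tested.

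**Figure D5:**
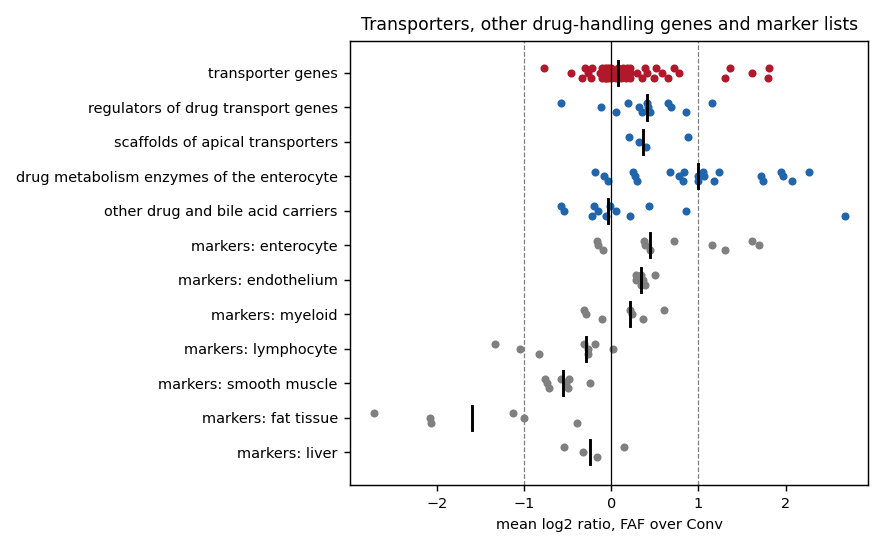
Mean log2 ratio of FAF over Conv for each measured gene (points) of the transporter set (red), other drug-handling lists (blue) and cell type marker lists (grey). Black bars are list medians and dashed lines mark 2-fold. Medians run from 0.99 for drug metabolism enzymes to -1.60 for fat tissue markers, with 0.08 for the transporters.

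The plot of lists shows 5 transporter genes apart from the other 44, which lay between -0.77 and 0.78. The drug metabolism enzymes ran from -0.18 to 2.27. Of the ileal markers Fabp6 and Fgf15 were not measured, Slc10a2 had 110 and 105 in FAF against 105 and 101 in Conv, and Guca2a had a ratio of 0.52.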

How the data were processed

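Members were the 143 probes whose deposited gene name fits the families named above. The members, the gene lists and their tests were chosen with earlier results of these data known. Per the file headers, Agilent Feature Extraction 11.5.1.1 made the deposited files, in which every spot has a linear intensity for each dye, a local background and quality marks. The deposited log10 ratio, Cy5 over Cy3, equals the deposited value table to within 5e-08 over 45018 entries, and served as an alternative. The deposited p-value, which the software computes for a spot's ratio, was not used.

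Mean intensities were background-corrected (normexp, offset 50) and normalised by loess on each array (limma 3.58.1, R 4.3.3), with control spots at weight 0. The offset was added to both dyes, so the intensities given include it and the ratios of dim probes are drawn towards 0. The dyes named in the labels set the direction FAF over Conv. Ratios were put on the log2 scale and averaged. Intensities per diet were scaled between arrays by quantiles of the mean signal. Spots with outlier marks were dropped, spots of a probe averaged, and a gene read from its brightest measured probe. Bounds compare the brighter diet with the higher of the dim signal and the lowest signal well above background (69.4 and 70.7 on the arrays). For Slc22a19 and the dimmer Abcc3 probe the dim signal was the higher, so the measured mean is given. Current RefSeq symbols were found for 27668 probes by accession, of them 121 member probes, and 13506 keep the file's name. Both arrays came from the same slide and scan, so no batch divides the arrays. Any difference in handling between the RNA samples cannot be told apart from diet. With 1 RNA sample per diet no test was made. The number of arrays limits the precision, and the steps were tested on simulated data. Genes named with values were those past the rule of size, the 8 highest and 8 lowest members, all measured apical pumps, cation carriers and MATE genes, members measured in 1 diet, and from other lists those past the rule or otherwise the 2 of largest ratio. Other genes given with values were named after these were seen. The values of 3 members are not reported here, though they are in the counts and medians. Alternatives covered background correction, normalisation, the filter on dim probes, the choice of probe, each array alone and the rule of size.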

Additional observations from a re-analysis of the deposited data

How the results depend on the processing

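The same 5 transporter genes passed as higher under each of the 9 alternatives, and 0 members passed as lower in 8 of them. Under the looser rule of size the 5 had to pass. The stricter filter on dim probes could not remove them either, since all were well above background in both diets. With a mean of at least 1.5-fold in place of the rule, 8 members were higher and 1 was lower, beside 775 and 616 of all genes. The additions included Abcb9 and Abcc6 as higher, and Abcc3 was the lower one. The log ratio of the scanner software added Abcc6 and Abcg3 and called 487 of all genes higher and 350 lower, against 263 and 151 as reported. A normexp offset of 10, in place of 50, added Abcc6 at 1.18 and called 320 of all genes higher and 201 lower. Median centring in place of loess left 82 of all genes lower and gave the members a median of 0.14, against 0.08 as reported. The cause of these differences was not tested. With each array alone, 5 members were higher and 0 lower, all genes gave 268 to 286 higher and 144 to 172 lower, and the members' median was 0.06 to 0.10. The ratio of Abcg2 ran across 0, from -0.15 to 0.05, and that of Slc22a21 from -0.08 to 0.06. Abcc6 ran from 0.69 to 1.75, Abcc3 from -0.83 to -0.46, Slc22a15 from -0.73 to -0.18 and Slc22a13 from 0.04 to 0.41. Over all alternatives, 241 ratios of named genes and class medians stayed within 1 SD of the 2 arrays, and 45 moved further. None of the values past the rule changed sign. The ratio of a gene on 1 array always lies within that SD, so this part of the count was fixed in advance. Genes with 1 measured probe, measured in both diets, could not move with the filter or the choice of probe either. Where only the array carrying FAF in Cy5 was used, the medians of the other ABCC pumps, the other ABCG genes and the remaining SLC22 genes turned to 0.17, 0.01 and 0.03, and that of the ABCC pumps was -0.23 on the other array. No paired analysis was possible because the arrays share the same RNA pair. The signal over background leaves 34 member genes without a ratio, and Slc22a13 and Slc22a19 measured in 1 diet only.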

Other observations

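Members that neighbour each other on a chromosome were compared outside the Abcb1a run as well, taking probes within 500000 bases of each other in build mm9. The carnitine and cation carriers Slc22a5, Slc22a21 and Slc22a4 lie at 53678550 to 53796900 of chromosome 11 and had ratios of 0.08, -0.01 and 0.58, so these neighbours did not share a value. The 7 anion carrier genes on chromosome 19 had 3 measured, Slc22a19, Slc22a8 and Slc22a6, between -0.07 and 0.02. Abcc6 and Abcc8, neighbours on chromosome 7, had 0.78 and 0.06. On chromosome 6, Abcc9 was measured at -0.30 beside 6 OATP1 genes that were not.

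Of the 49 measured members 18 had at least 2 measured probes. In 17 of these the probes of a gene lay within 0.5 of each other on the log2 scale, with a median gap of 0.125 over the 18 genes. Abcc3 was the other gene. Its dimmer probe was well above background on both arrays in Conv only, with a mean of -0.15, a gap of 0.62 from the brighter probe.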
